A study of Mus musculus with 6 samples.

Results

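The 32 genes described here are those of oligodendrocytes and of the myelin they make, measured in hippocampal total RNA of 3 inhibitor-1 KO and 3 wild-type mouse samples, with 1 one-colour Affymetrix array each. The list is one of gene names known for the cell type; it uses no measured value as a criterion, but was drawn up with earlier results of these data known. Each is represented by every probe set that the platform annotation gives to that gene alone, which were 69 of the 45101 probe sets on the array. These cover 31 of the 32 genes, out of 18194 genes on the array, 15 with 1 probe set and 16 with several (8 for Mbp). Trf, the transferrin gene, had none of its own and is not analysed further. Inhibitor-1 is the product of Ppp1r1a. When phosphorylated by protein kinase A it restrains protein phosphatase 1, and the comparison asks what its absence does to transcript levels. The groups were inhibitor-1 KO hippocampus and wild-type hippocampus. Strain, sex, age, the design of the allele and whether each array is a separate animal are not given in the sources used here, so a p-value here reflects only how these samples vary, and that variation may be technical.

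Oligodendrocytes wrap axons in myelin, a compacted stack of membrane rich in galactolipids and cholesterol and held together by a small set of abundant proteins. The transcription factors SOX10, OLIG1, OLIG2 and NKX2-2 set up the lineage, and MYRF then drives the myelin genes in the maturing cell. In the hippocampus the cells are densest in the fibre tracts, such as the alveus and fimbria, which border the neuron layers. In RNA of whole tissue, fewer oligodendrocytes and less of a transcript per cell cannot be told apart.

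Values were deposited as linear intensities and were tested as log2(intensity + 16), with limma fitted on 26999 probe sets after the dimmest 40% and the control probe sets were left out. Of the 69 member probe sets 63 passed that filter, and each of the 31 genes kept at least 1. A gene's value below is that of its brightest tested probe set unless another is named, and p-values are adjusted by the Benjamini-Hochberg method over all tested probe sets. The 6 member probe sets left out as dim belong to Mobp, Opalin, Bcas1 (2), Cryab and Gsn. Of the 31 brightest probe sets the lowest lay at the 52.5 percentile of the array (Nkx6-2) and the highest at the 99.97 percentile (Mbp), so the marker of the cell type was bright on all arrays. The signal of a probe set depends on its own probes, and levels of different genes are therefore not compared.

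The targeted gene followed the labels. Ppp1r1a had intensities of 272.5, 248.5 and 347.2 in KO hippocampus, against 9061, 8370 and 10345 in wild-type hippocampus (limma adjusted p = 3.579e-07). The 6 arrays had equal trimmed means of 2500. The ratio of the 3' to the 5' beta-actin control, a measure of RNA integrity, was 1.18 to 1.21 on KO arrays and 1.24 to 1.30 on wild-type arrays, without overlap. That of Gapdh was 0.821 to 0.829 on KO arrays and 0.809 to 0.880 on wild-type arrays. The part of RNA integrity in the results below was not tested. Median intensity was lowest on replicate 1 in either group (540.1 in KO, 572.3 in wild type).

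No oligodendrocyte or myelin gene passed the threshold, and their values leaned toward lower in KO hippocampus. Of the 31 genes 0 had a limma adjusted p under 0.05, where 0.016% of the 12493 genes (and 0.0111% of the probe sets) tested were called lower and 0% higher. At an unadjusted p under 0.05, 6 genes were lower (19.4% of the members, where 2.31% of all genes were) and 0 were higher (2.44% of all genes were). They were Fa2h, Mag, Mobp, Bcas1, Plekhb1 and Gsn. The count was 1 (Fa2h) with the arrays set to one median (1.16% of all genes were lower) and 1 (Fa2h) without an intensity trend in the variances (1.86% of all). The median SE was 0.089 for the members and 0.141 for all genes, so these shares compare genes of unlike precision. Genes of a cell type share the RNA of an array, and the 31 are not independent of each other. In all, 21 genes had a change below 0, which is 67.7% against 49.9% of all genes, and 10 had a change above 0 (50.1% of all genes did). Their median change was -0.10 on the log2 scale, a fold of 0.933, and that of all genes was 0.00033. The KO values lay under all wild-type values for 7 genes (22.6%, against 5.12% of all genes), and above them for 0 (5.34% of all genes). The members with no overlap were Fa2h, Mag, Mobp, Bcas1, Gsn, Myrf and Nkx2-2. Counted over probe sets, 44 of the 63 were below 0 (49.1% of all probe sets were) and 19 above (50.9% of all). At an unadjusted p under 0.05, 9 were lower (2.21% of all) and 0 higher (2.17% of all), and 12 had no overlap on the lower side (4.91% of all) and 0 on the higher side (4.97% of all).

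The arrays contributed unequally. Wild type replicate 1 held the highest of the 6 values for 15 of the 31 genes (48.4%), where 14.1% of all genes were highest on it, and the lowest value for 0. The lowest value was on KO replicate 1 for 11 genes (35.5%, against 16.6% of all genes) and on KO replicate 2 for 8 (25.8%, against 17.8%). Centred on each gene's mean, the median level of the 31 genes was -0.09, -0.11 and 0.04 on the KO arrays and 0.14, -0.0036 and -0.0041 on the wild-type arrays. KO replicate 3 thus lay between wild type replicate 1 and the other wild-type arrays. Without wild type replicate 1, 17 of 31 genes were below 0 (50.7% of all genes were) with a median of -0.016. At an unadjusted p under 0.05, 3 were then lower (2.18% of all genes) and 1, Cldn11, higher (2.67% of all). Without replicate 1 of both groups, 16 of 31 were below 0 (50.1% of all genes) with a median of -0.0022.

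**Figure D1:**
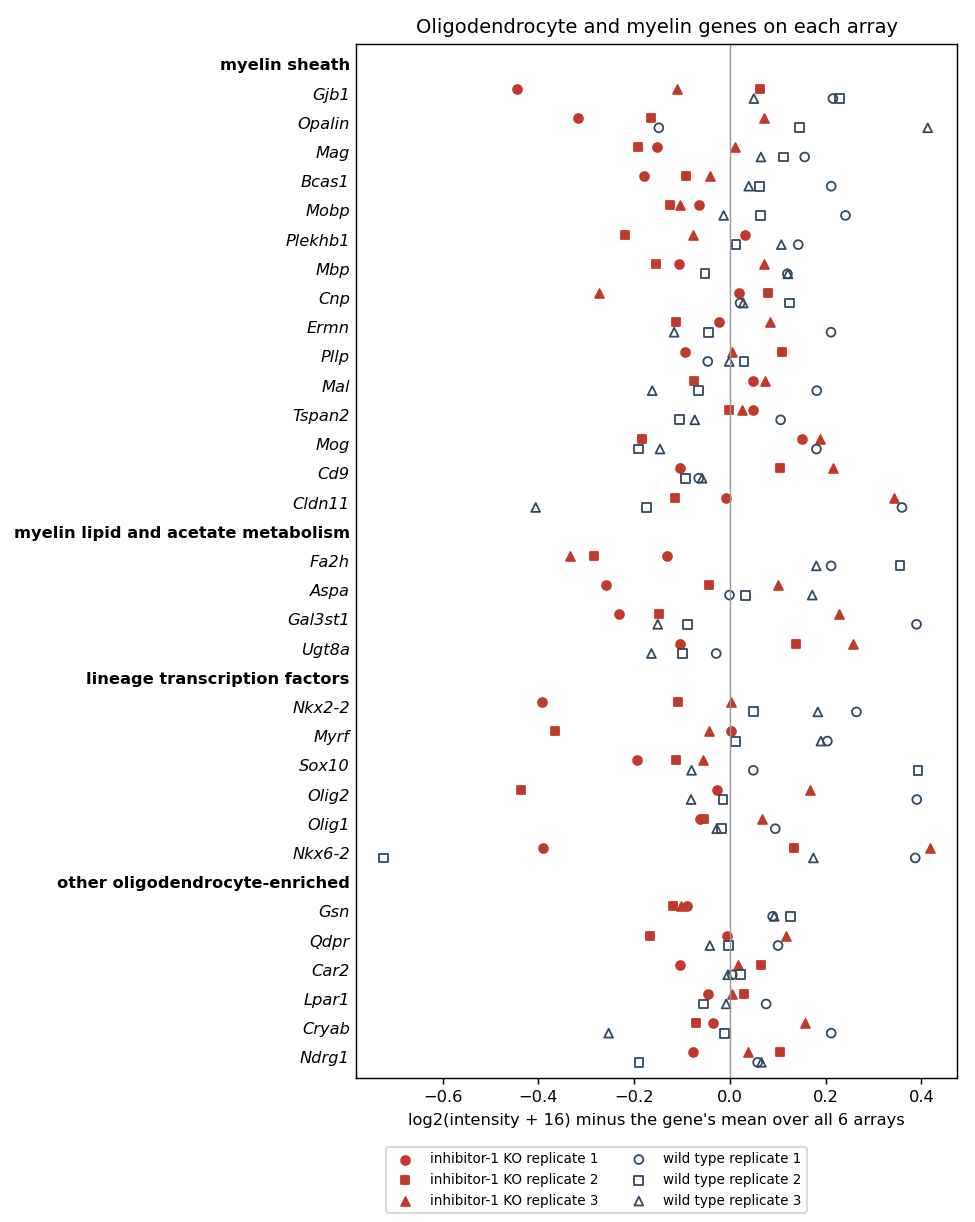
Each row is a gene, grouped by role, and each symbol 1 array; the x axis is log2(intensity + 16) minus the gene's mean over the 6 arrays. Filled symbols are inhibitor-1 KO and open symbols wild type; the open circle of wild type replicate 1 is the rightmost symbol for 15 of the 31 genes.

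The enzymes of myelin lipids held the gene with the lowest p. Fa2h hydroxylates the fatty acids that go into myelin galactolipids. Its only probe set, 1426960_a_at, read 6244, 5615 and 5426 in KO hippocampus, against 7921, 8753 and 7753 in wild-type hippocampus. The highest KO value was thus well under the lowest wild-type value. The means were 5762 ± 428.2 in KO and 8142 ± 535.7 in wild type (SD, n = 3 each). The log2 change was -0.50 (SE 0.10, unadjusted p = 0.0002618), a fold of 0.708, and the limma adjusted p was 0.884. Over the 19 alternatives the change ran from -0.58 to -0.45, the unadjusted p stayed under 0.05 in each of the 18 that gave one, and the lowest limma adjusted p was 0.1002.

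Ugt8a encodes the galactosyltransferase that adds the sugar to the ceramide, hydroxylated or not. It read 7802, 9230 and 10025 in KO hippocampus, against 8221, 7825 and 7483 in wild-type hippocampus. KO replicates 2 and 3 lay above all wild-type arrays and KO replicate 1 lay among them. The change was 0.19 (SE 0.10, limma adjusted p = 0.988), and that of its other probe set, 1419064_a_at, was 0.09 (SE 0.14). Gal3st1 sulphates the product to make sulphatide. It read 1973, 2092 and 2718 in KO and 3043, 2179 and 2087 in wild type, groups that overlapped (change -0.10, SE 0.18). Aspa, which splits N-acetylaspartate and so frees acetate for lipid synthesis, read 3791, 4400 and 4865 in KO and 4537, 4641 and 5116 in wild type. These overlapped too (change -0.14, SE 0.12).

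**Figure D2:**
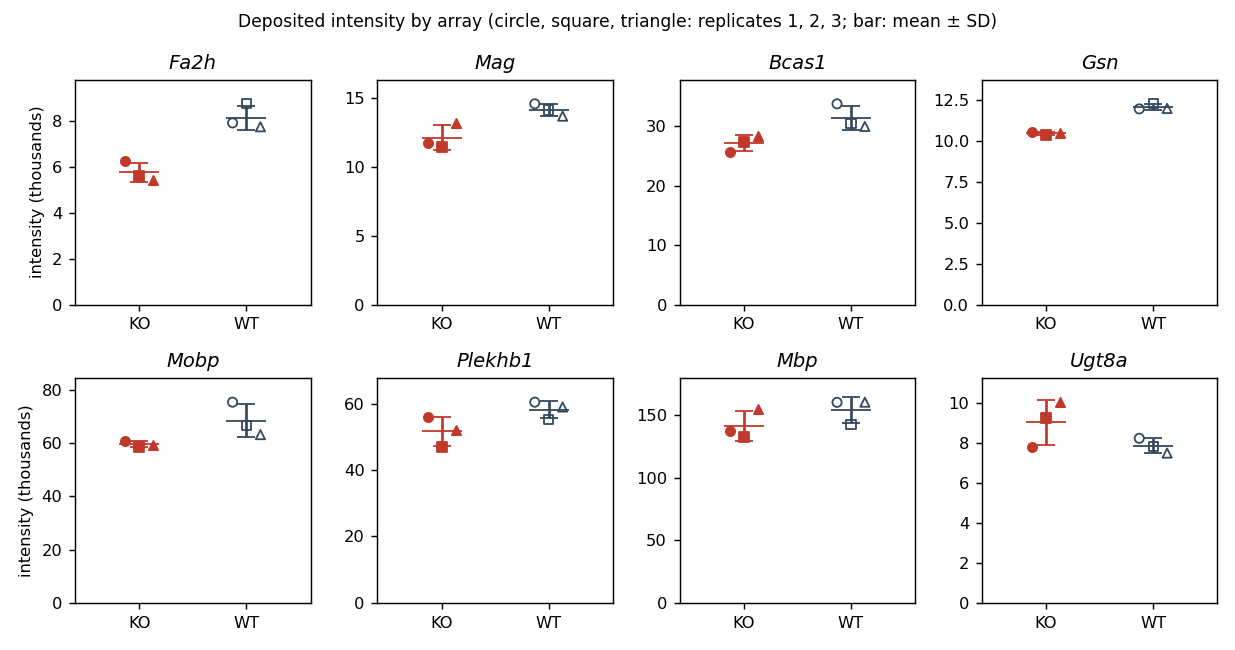
Deposited linear intensity, scaled as each axis label says and drawn from 0, for 8 genes in inhibitor-1 KO (filled, left) and wild-type (open, right) hippocampus, with the mean and SD of 3 arrays. The groups do not overlap for Fa2h, Mag, Bcas1, Gsn and Mobp and overlap for Plekhb1, Mbp and Ugt8a; only the KO mean of Ugt8a is the higher one.

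Among 15 genes of the myelin sheath, 9 had a change below 0 and 6 above, with a median of -0.12. Mag, an adhesion protein of the membrane that faces the axon, read 11788, 11466 and 13205 in KO hippocampus, against 14604, 14162 and 13706 in wild-type hippocampus. The groups did not overlap, though KO replicate 3 came close to wild type replicate 3. Its change was -0.22 (SE 0.08, unadjusted p = 0.01769). Bcas1, a gene marking cells that have begun to myelinate, read 25703, 27324 and 28312 in KO, against 33737, 30412 and 29938 in wild type, again without overlap (change -0.21, SE 0.07, unadjusted p = 0.01501). Plekhb1, a membrane protein with a pleckstrin homology domain, read 55983, 47024 and 51916 in KO, against 60441, 55234 and 58980 in wild type. KO replicate 1 exceeded wild type replicate 2 there (change -0.18, SE 0.08, unadjusted p = 0.0399). The limma adjusted p of these 3 genes was 0.988.

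Several sheath genes had more than 1 probe set, which gives a check within the gene. Mobp, a small basic protein of compact myelin, read 60839, 58418 and 59265 in KO, against 75263, 66558 and 63092 in wild type at its brightest probe set. The KO arrays were close together and under every wild-type array (change -0.20, SE 0.07, unadjusted p = 0.02155). Its other tested probe sets changed by -0.22, -0.18 and -0.05, and in these the groups overlapped. Cnp, a cytoplasmic phosphodiesterase of non-compact myelin, changed by -0.12 (SE 0.09), -0.17 (SE 0.08) and -0.30 (SE 0.09) at its 3 probe sets. At the last, 1418980_a_at, it read 18604, 15538 and 18013 in KO and 23889, 19934 and 20527 in wild type, without overlap (unadjusted p = 0.007749). At the brightest, 1437341_x_at, KO replicate 3 alone was low, at 60681 against 74301 and 77466 for the other KO arrays and 74396 to 79867 for wild type. The suffix x marks probe sets with probes that can also match other transcripts.

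Mbp, the basic protein that binds the cytoplasmic faces of the sheath together, read 136969, 132413 and 154756 in KO hippocampus, against 160189, 142188 and 160315 in wild-type hippocampus. The groups overlapped (change -0.13, SE 0.08, limma adjusted p = 0.988). All 8 of its probe sets had a change below 0, from -0.14 to -0.0020. Of these, 6 lay at the 99.87 percentile of the array or above, and the other 2, at the 84.2 and 76.2 percentiles, were the ones that changed least (-0.0024 and -0.0020, SE 0.14 each). Only 1451961_a_at had groups without overlap (change -0.14, SE 0.06, unadjusted p = 0.0425). Probe sets of 1 gene share their RNA and are no replicates.

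The remaining sheath genes had groups that overlapped. Opalin, a transmembrane protein of the sheath, read 5964, 6637 and 7818 in KO and 6711, 8234 and 9913 in wild type. Wild type replicate 1 was the lowest of its group here, unlike in most members (change -0.27, SE 0.14), and without it the change was at an unadjusted p under 0.05. Gjb1, a gap junction connexin, changed by -0.33 (SE 0.19) at 1 probe set and -0.02 (SE 0.32) at the other. Cldn11, the tight junction claudin of myelin, changed by 0.15 (SE 0.18), with wild-type values spread from 6208 to 10562. Cd9 and Tspan2, both tetraspanins, changed by 0.14 (SE 0.09) and 0.05 (SE 0.08). Mog, an immunoglobulin-like protein of the outermost layer, changed by 0.10 (SE 0.13). Ermn, a cytoskeletal protein, and the tetraspan proteolipids Mal and Pllp changed by -0.03, 0.03 and 0.01.

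**Figure D3:**
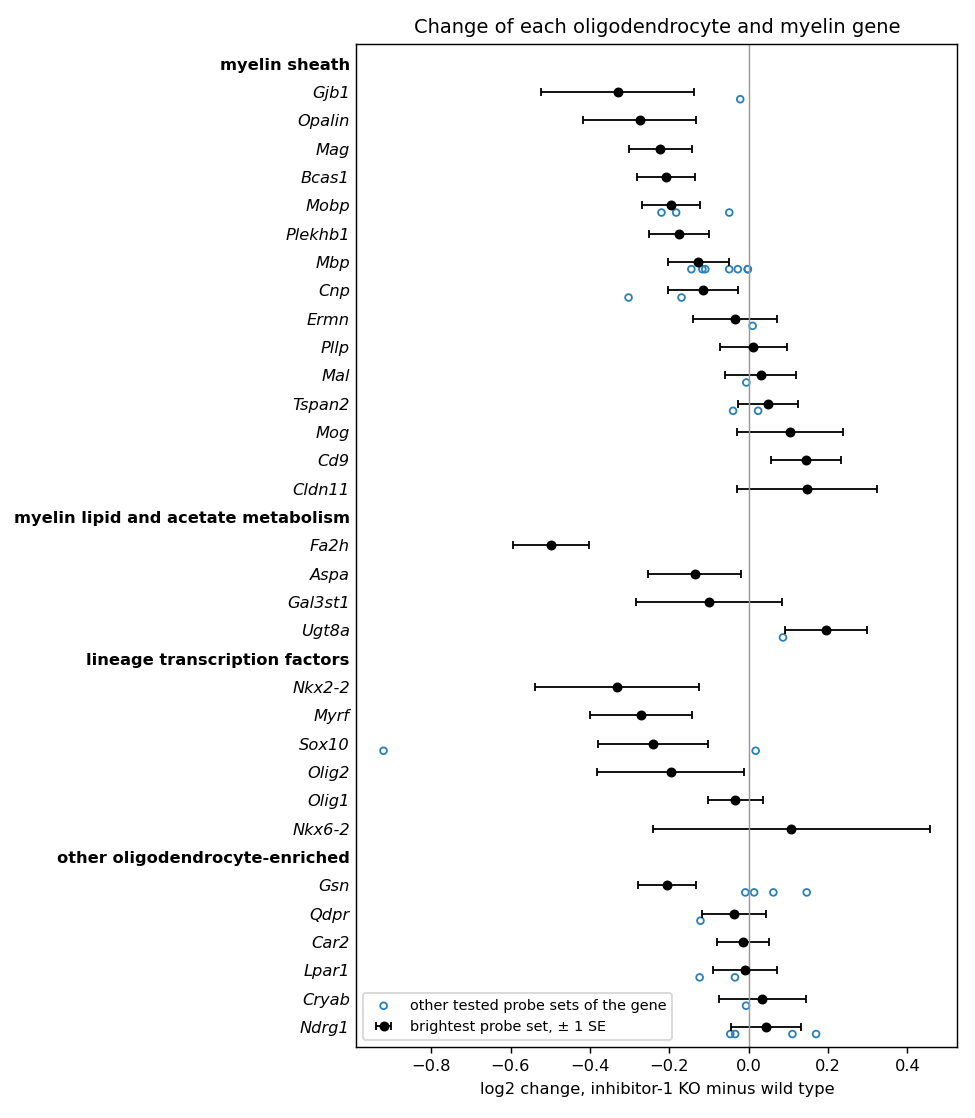
The x axis is the log2 change, inhibitor-1 KO minus wild type, of each gene. Black points with bars are the brightest probe set ± 1 SE and open circles the gene's other tested probe sets; Fa2h lies farthest left among the black points at -0.50, and the other probe sets of Gsn lie to the right of its black point.

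Of the 6 lineage transcription factors, 5 had a change below 0, with a median of -0.22, and 0 had an unadjusted p under 0.05. Myrf, the membrane-bound factor that turns on myelin genes, read 3782, 2926 and 3661 in KO hippocampus, against 4349, 3807 and 4308 in wild-type hippocampus. The groups did not overlap, but KO replicate 1 and wild type replicate 2 were almost equal (change -0.27, SE 0.13, unadjusted p = 0.05836). Nkx2-2, a homeodomain factor of differentiating precursors, read 833, 1018 and 1100 in KO and 1322, 1136 and 1249 in wild type, also without overlap. Its change was -0.33 with an SE of 0.21, and the probe set lay at only the 60.4 percentile. Olig1, a lineage factor with a basic helix-loop-helix domain, read 27712, 27874 and 30337 in KO and 30917, 28596 and 28403 in wild type, overlapping (change -0.03, SE 0.07).

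Sox10, a high mobility group factor needed in all stages of the lineage, had 3 probe sets that differed. At the brightest, 1451689_a_at, it read 2848, 3018 and 3139 in KO and 3375, 4288 and 3085 in wild type, where wild type replicate 2 stood highest and the groups overlapped (change -0.24, SE 0.14). At 1425369_a_at, near the middle of the array's range, it read 641, 234 and 643 in KO and 1112, 744 and 840 in wild type, without overlap (change -0.92, SE 0.39, unadjusted p = 0.03757). At 1424985_a_at the change was 0.02 (SE 0.23). Sox10 lies on chromosome 15, as the targeted Ppp1r1a does, and so does Ndrg1 of the next group. Olig2 changed by -0.20 (SE 0.18). Nkx6-2, a homeodomain factor of maturing oligodendrocytes, changed by 0.11 (SE 0.35), with values of 515, 747 and 913 in KO and 894, 405 and 769 in wild type.

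The last 6 measured genes are enriched in oligodendrocytes but also used by other cells, and their median change was -0.01. Gsn, the actin-severing protein gelsolin, read 10578, 10366 and 10478 in KO hippocampus, against 11969, 12281 and 11997 in wild-type hippocampus at 1415812_at. Both groups were tight and far apart relative to their spread (change -0.21, SE 0.07, unadjusted p = 0.01528). Yet its 4 other tested probe sets changed by 0.01, -0.01, 0.15 and 0.06, and in each of them the groups overlapped. These 4 all have the suffix x, which 1415812_at lacks, so they are not equally specific for the gene. With the mean of all tested Gsn probe sets the change was 0.0017. Qdpr, which recycles tetrahydrobiopterin, read 61448, 54916 and 66924 in KO and 66140, 61525 and 59920 in wild type (change -0.04, SE 0.08). That probe set, 1437993_x_at, also has the suffix x. The other Qdpr probe set, 1423664_at, changed by -0.12 (SE 0.07), with KO values under all wild-type values. Car2 (a carbonic anhydrase), Lpar1 (a lysophosphatidic acid receptor), Cryab (a small heat shock protein) and Ndrg1 (a stress-responsive protein needed by myelinating glia) changed by -0.02, -0.01, 0.03 and 0.04. The other Lpar1 probe sets changed by -0.03 (SE 0.12), with overlap, and -0.12 (SE 0.12), without. Those of Ndrg1 changed by -0.05 to 0.17, with overlap. Of all members, 7 had tested probe sets on either side of 0.

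Promoter sequence is shown for Mag, Mobp, Plekhb1 and Opalin, sheath genes among those with the lower KO means, because the factors whose motifs are marked are members themselves. Sequences are from RefSeq on GRCm38.p6, 250 bases before to 50 after an annotated start. A table of promoters matched 22 of the 32 genes with 35 starts, which can overlap, and the start printed is the first listed with the most matches. Capitals mark ACAAAG or ACAATG (SOX factors), CAGCTG (an E-box bound by helix-loop-helix factors such as OLIG2) and CTGGNAC (MYRF), searched on both strands. Matches of different motifs may share bases.
Mag, chr7:30914814-30915113, minus strand: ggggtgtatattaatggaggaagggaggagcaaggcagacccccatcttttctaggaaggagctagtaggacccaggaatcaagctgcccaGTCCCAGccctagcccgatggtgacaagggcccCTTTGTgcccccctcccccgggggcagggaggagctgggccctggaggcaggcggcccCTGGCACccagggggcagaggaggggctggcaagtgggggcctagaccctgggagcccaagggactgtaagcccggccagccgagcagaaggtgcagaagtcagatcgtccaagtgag
Mobp, chr9:120149492-120149791, plus strand: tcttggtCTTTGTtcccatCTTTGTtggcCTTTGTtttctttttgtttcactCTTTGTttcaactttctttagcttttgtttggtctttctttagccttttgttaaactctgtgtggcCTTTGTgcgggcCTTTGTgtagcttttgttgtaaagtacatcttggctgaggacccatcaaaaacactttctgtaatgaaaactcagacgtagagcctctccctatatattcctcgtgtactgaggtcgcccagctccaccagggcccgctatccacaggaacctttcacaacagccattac
Plekhb1, chr7:100656916-100657215, minus strand: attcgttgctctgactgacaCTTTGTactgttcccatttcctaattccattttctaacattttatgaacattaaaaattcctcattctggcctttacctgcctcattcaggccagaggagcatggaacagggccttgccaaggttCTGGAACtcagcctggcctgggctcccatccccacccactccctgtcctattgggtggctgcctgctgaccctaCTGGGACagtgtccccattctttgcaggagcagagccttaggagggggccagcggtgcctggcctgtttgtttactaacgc
Opalin, chr19:41077064-41077363, minus strand: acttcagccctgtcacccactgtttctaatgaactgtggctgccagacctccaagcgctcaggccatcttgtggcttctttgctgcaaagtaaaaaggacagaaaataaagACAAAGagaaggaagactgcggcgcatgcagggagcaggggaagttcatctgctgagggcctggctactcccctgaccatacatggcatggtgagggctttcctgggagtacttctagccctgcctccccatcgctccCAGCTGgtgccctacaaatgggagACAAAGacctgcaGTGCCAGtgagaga

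The window of Mobp held 6 SOX matches, all read as CTTTGT on the printed strand. The windows of Mag and Plekhb1 each held 1 SOX and 2 MYRF matches, and that of Opalin 2 SOX, 1 E-box and 1 MYRF match. Of the 35 member windows, 42.9% held a SOX match, 14.3% the E-box and 31.4% a MYRF match. The shares over all 32851 windows of that length were 28.6%, 16.3% and 19.3%. The listed windows of Ugt8a, Cldn11, Mal, Pllp, Nkx2-2, Nkx6-2 and Qdpr held 0 matches. Among sheath genes not printed, Mog (1 MYRF), Cd9 (1 E-box and 1 MYRF) and Tspan2 (1 SOX) had matches and changes above 0. Cnp, Ermn and Gjb1 had matches and changes below 0. Whether matches go with the direction of change was not tested. A match is a description of the letters and shows no binding.

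Other lists of the pathway gave the background for the members. Of 27 further oligodendrocyte genes tested, 19 had a change below 0 (70.4%, median -0.06) and 0 passed in limma. At an unadjusted p under 0.05, 2 were lower (2.31% of all genes were) and 1 higher (2.44% of all). Tmem88b and Tmem125, transmembrane protein genes, changed by -0.27 (SE 0.10) and -0.53 (SE 0.21). Apod, a lipid carrier that fibroblasts and pericytes also make, changed by 0.16 (SE 0.07), and Sema6a, a semaphorin, by 0.22 (SE 0.22). On the arrays their median centred level was -0.16, -0.03 and 0.04 in KO and 0.11, 0.03 and 0.0064 in wild type. Wild type replicate 1 was again the highest and KO replicate 1 the lowest. Without replicate 1 of both groups their median change was 0.01.

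Genes of oligodendrocyte precursors, the dividing cells of the lineage, were also measured. Of 9 precursor genes tested 5 were below 0 (median -0.0046) and 0 had an unadjusted p under 0.05. Pdgfra, a growth factor receptor used as their marker, changed by 0.16 (SE 0.10), with KO values all above wild-type values. It was the 1 gene of the 9 without overlap on the higher side (5.34% of all genes were). On the lower side there were 0 (5.12% of all). Sox6, a factor of immature cells, changed by 0.35 (SE 0.33), Vcan, a matrix proteoglycan, by -0.10 (SE 0.24) and C1ql1, a secreted C1q-like protein, by -0.10 (SE 0.24). Of 17 cholesterol synthesis genes 10 were below 0 (median -0.02), led by Fdft1 (-0.14, SE 0.08) and Hmgcs1 (-0.16, SE 0.10) below and Msmo1 (0.26, SE 0.22) and Mvd (0.13, SE 0.17) above. None of the 17 had an unadjusted p under 0.05.

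Lipid enzymes used by most cells were mostly on the other side of 0. Of 19 genes of sphingolipid and very long chain lipid synthesis and breakdown, 15 had a change above 0, with a small median of 0.03 and 0 at an unadjusted p under 0.05. Asah1, the lysosomal ceramidase, changed by 0.18 (SE 0.09) and Sgms1, a sphingomyelin synthase, by 0.26 (SE 0.14). Psap, the precursor of the saposins, changed by -0.07 (SE 0.06) and Elovl1, an elongase, by -0.06 (SE 0.10).

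Of 21 regulators of oligodendrocyte differentiation, 9 were below 0 (median 0.0095). At an unadjusted p under 0.05, 1 was lower (2.31% of all genes were) and 0 higher (2.44% of all). The lower gene was Akt1, a kinase that promotes myelin growth when active in oligodendrocytes but is used by all cells. It changed by -0.38 (SE 0.10, unadjusted p = 0.002282, limma adjusted p = 0.988), without overlap, at its brightest probe set. Its other tested probe sets changed by -0.08 (SE 0.09, unadjusted p = 0.419) and 0.08 (SE 0.41, unadjusted p = 0.858). Hes5, a Notch effector, changed by -0.33 (SE 0.20), Jag1, a Notch ligand, by 0.41 (SE 0.25) and Hdac2, a histone deacetylase, by 0.14 (SE 0.09). Of 16 genes of the axonal node and paranode, which myelin organises, 8 were below 0 (median 0.0018). Scn2b, a sodium channel beta subunit, changed by 0.16 (SE 0.07, unadjusted p = 0.03765) at its brightest probe set, by -0.37 (SE 0.13, unadjusted p = 0.0165) at another and by 0.02 (SE 0.23) at the dimmest, so its direction differed between probe sets. Cntn1, an axonal adhesion protein, changed by 0.06 (SE 0.07), Scn8a, a nodal sodium channel, by -0.13 (SE 0.07) and Sptbn4, a spectrin of the node, by -0.14 (SE 0.09). Of the genes named from these lists, Sema6a, Sox6, Vcan, Fdft1, Mvd, Sgms1, Hes5, Hdac2 and Cntn1 also had a tested probe set with the opposite sign to the brightest. For Sema6a, Sox6, Vcan, Fdft1, Mvd and Hes5 that held for every other tested probe set. Those of Sox6 changed by -0.30, -0.12 and -0.20, those of Vcan by 0.04 and 0.30, and that of Sema6a by -0.69 (SE 0.36).

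Markers of bordering tissue ranged more widely over the arrays than the myelin genes. The 16 choroid plexus and ependymal markers had median centred levels of -0.28, 0.63 and 0.55 in KO and -1.003, 0.02 and 0.12 in wild type. Of them, 15 had a change above 0 (median 0.56). At an unadjusted p under 0.05, 4 were higher (2.44% of all genes were) and 0 lower (2.31% of all). Their summed intensity ran from 234056 to 290717 in KO and from 207369 to 297212 in wild type. Wild type replicate 1, highest for the myelin genes, was thus lowest for these. The 15 markers of meninges and fibroblasts were all above 0 in change (median 0.41), and 5 were higher at an unadjusted p under 0.05 (2.44% of all genes were). Their summed intensities were 66936 to 92705 in KO and 56504 to 70200 in wild type. When the level of the choroid plexus markers was a term of the fit, 18 of the 31 myelin genes were below 0 with a median of -0.05, and Fa2h changed by -0.47. In that fit 4 genes, Fa2h, Gsn, Mag and Opalin, were lower at an unadjusted p under 0.05 (2.63% of all genes were) and 0 higher (3% of all).

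**Figure D4:**
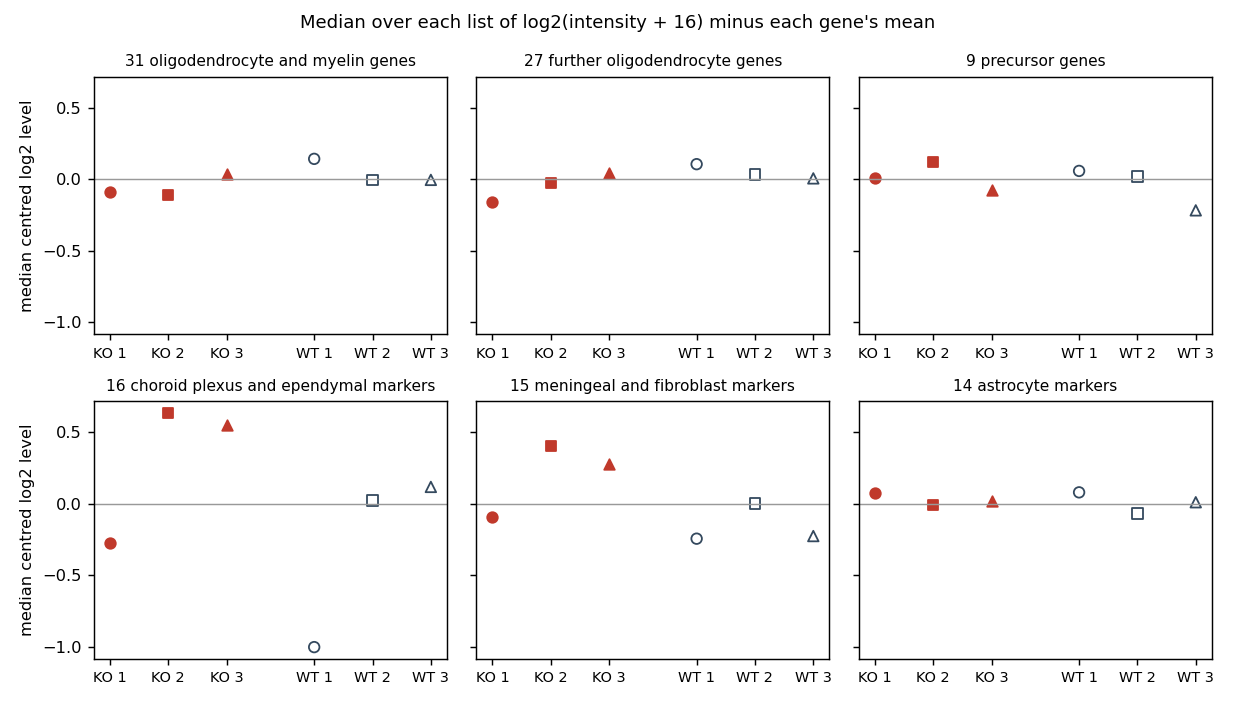
Each panel is a list of genes and each symbol 1 array (KO filled, wild type open); the y axis is the median over the list of log2(intensity + 16) minus each gene's mean. Wild type replicate 1 is highest for the 31 oligodendrocyte and myelin genes, at 0.14, and lowest for the choroid plexus and ependymal markers, at -1.003.

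For other cell types, median changes were 0.06 for 14 astrocyte, 0.08 for 13 microglia, 0.09 for 13 endothelial and mural, 0.05 for 10 dentate granule neuron, 0.02 for 8 CA1 neuron and -0.06 for 9 thalamus markers. Summed intensities overlapped between the groups for the dentate, CA1, thalamus and endothelial lists. Astrocyte sums were 375449 to 381870 in KO and 356229 to 374749 in wild type. Microglia sums were 83926 to 88564 in KO and 81024 to 85630 in wild type. The part of these cells in the results was not tested. Schwann cells, the myelinating cells of peripheral nerve, were represented by 3 of 8 markers above the filter, and their defining myelin genes Pmp2 and Ncmap were below it.

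**Figure D5:**
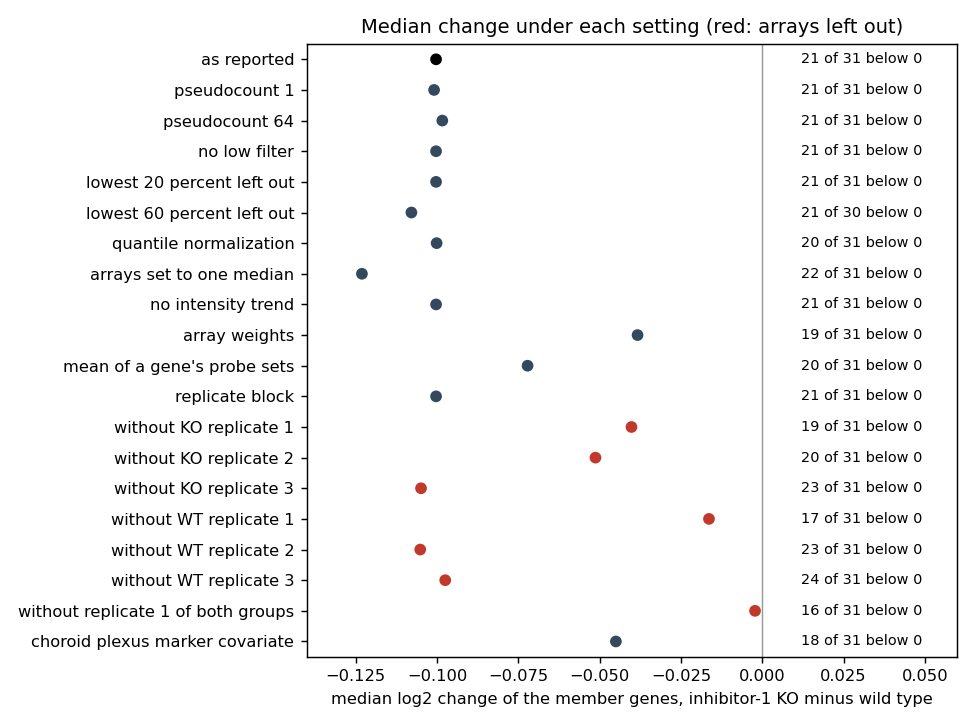
Each row is a processing setting; the x axis is the median log2 change, inhibitor-1 KO minus wild type, of the measured oligodendrocyte and myelin genes, and the text gives how many were below 0. The median lies between -0.12 and -0.0022, nearest 0 where wild type replicate 1 or replicate 1 of both groups is left out.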

How the data were processed

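Total RNA of hippocampus was measured on 6 arrays. The authors deposited linear intensity values, 1 per probe set, scaled to one trimmed mean (2% left out at each end); which software made them is not stated in the labels. Values were transformed as log2(intensity + 16) with no further scaling. The 64 control probe sets and the dimmest 40% were left out. Inhibitor-1 KO was compared with wild type in limma 3.58.1 (R 4.3.3; a model with group alone, two-sided, with variances moderated along an intensity trend), with Benjamini-Hochberg adjustment over 26999 probe sets at 0.05. The fit was also run on simulated data with added changes larger than those of most members, which says little about changes as small as theirs. The annotation gave 1 symbol to 34958 probe sets, several to 932 and none to 9211; 34754 of them matched a RefSeq table (GRCm38.p6) on gene ID, and 0 symbols changed. The number of arrays limits the precision.

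Members, lists and alternatives were chosen with earlier results of these data known. All members are named, with values per array for Mbp, the brightest gene of each role group, and genes with an unadjusted p under 0.05, no overlap, or probe sets that disagree in sign beyond 2 SE (other members' values were added after they were seen). Of each pathway list, up to 2 genes per direction are named. Alternatives were other pseudocounts (1, 64), filters (none, 20%, 60%), scalings and variance models, averaging the probe sets of a gene, a replicate block, a covariate, and leaving arrays out.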

Additional observations from a re-analysis of the deposited data

How the results depend on the processing

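0 member genes passed the adjusted threshold in any alternative run. Changes of 31 member genes kept their side of that threshold in all 588 comparisons, and 33 of these changed sign. Leaving out 1 array, 17 to 24 members were below 0, with medians from -0.11 to -0.016 (lowest in size without wild type replicate 1). Members at an unadjusted p under 0.05 were then 3 to 7 lower and 0 to 2 higher. Of all genes, 1.49% to 5.07% were lower and 1.6% to 4.90% higher. Without KO replicate 2, 3 members were lower (1.69% of all genes) and 0 higher (1.6% of all). Without wild type replicate 1, 3 were lower (2.18% of all) and 1, Cldn11, higher (2.67% of all). Without KO replicate 1, 7 were lower (5.07% of all) and 2, Cd9 and Ugt8a, higher (4.90% of all). With 1 array left out, 0 to 3 probe sets over all genes were higher and 3 to 4 lower at the adjusted threshold. Without replicate 1 of both groups the median was -0.0022, with 4 members lower and 3 higher at an unadjusted p under 0.05 (5.23% and 5.42% of all genes), and 10 probe sets were higher and 8 lower. Without an intensity trend 1 probe set was lower, and 1 member (Fa2h) had an unadjusted p under 0.05, as with arrays set to one median, also 1 (Fa2h). Array weights gave 7 members lower and 2 higher (4.16% and 4.26% of all genes). The covariate gave 1 probe set higher. The cause of each was not tested.

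No label pairs arrays of the same number. Their deviations from the group means had correlations of 0.24, 0.054 and 0.0998. KO replicate 2 correlated best with wild type replicate 3 (0.11). A replicate block gave 7 probe sets higher and 8 members lower and 0 higher at an unadjusted p under 0.05 (2.59% and 3.03% of all genes), with the median at -0.10. Across the tested probe sets the SE had a median of 0.177, which limits what 3 arrays a group can show.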

Other observations

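Fa2h and Ugt8a both act in galactolipid synthesis and had changes of opposite sign, a pair singled out after the values were seen. The log2 value of Fa2h minus that of Ugt8a was -0.32, -0.72 and -0.88 in KO hippocampus and -0.05, 0.16 and 0.05 in wild-type hippocampus. The difference between the group means was -0.69, given as a description with no test, since the pair was picked for it.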
